A study of Mus musculus with 8 samples.

Results

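The genes described here encode 10 factors of the silent chromatin that covers mouse telomeres: Atrx, Daxx, Suv39h1, Suv39h2, Setdb1, Cbx1, Cbx3, Cbx5, Suv420h1 and Suv420h2. They were chosen by name and make up 10 of the 23337 gene names in the count table, and all 10 had enough reads to be tested. Their mRNA was measured in mouse embryonic stem (ES) cells, which are cultured from the inner cells of the blastocyst and can form all tissues of the embryo. The question was whether these mRNAs changed as the cells were expanded in culture, and how far they differed between clones. In the unpaired test no member differed between passage 6 and passage 16 beyond the spread of the clones. When the passages were paired by clone, DESeq2 called Atrx lower at passage 16 (adjusted p = 0.0285), while limma and edgeR called no member. That call depended on which names were tested, and the values did not bear out the pairing of clone 6. Atrx varied most from clone to clone, with its lowest level in clone 30 at both passages.

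The libraries come from 4 ES cell clones, numbered 6, 20, 30 and 36, each sequenced early, at passage 6, and late, at passage 16, for a total of 8 libraries with n = 4 clones per passage. All were labelled as wild type, of strain 129S1 and from blastocysts, and according to the series' design text the lines carry GFP in the Rosa26 locus. For ES cells the methods mention C57BL6 as well as 129S1, and do not tie either to the sequenced clones. Cells grew in medium with LIF, no treatment separates the groups, and the passage is the only label that differs within a clone. PolyA RNA was sequenced in bulk from strand-specific libraries, so that fewer cells of a type and less RNA per cell cannot be told apart.

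Telomeric and pericentric repeats of the mouse are kept as heterochromatin by a chain of enzymes and binding proteins. ATRX, a chromatin remodeler, and DAXX, a histone chaperone, together deposit the histone variant H3.3 at these repeats. SUV39H1 and SUV39H2 trimethylate lysine 9 of histone H3 there, while SETDB1 places the same mark mainly on retroelements. The mark is bound by the HP1 proteins, HP1β (from Cbx1), HP1γ (from Cbx3) and HP1α (from Cbx5), which recruit SUV420H1 and SUV420H2 to methylate lysine 20 of histone H4. The current symbols of the last pair are Kmt5b and Kmt5c.

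The libraries held between 21394069 and 34295561 reads on genes, and a member between 870 and 24946 reads, so that counting error alone was between 3.39% and 0.633% of a value. Values are the authors' counts divided by 1 size factor per library, called normalized counts, and they do not take the length of a gene into account. Lines of the table were out of order in 7 of 8 libraries, with between 128 and 218 breaks in the order within groups where a longer name adds a digit to a shorter one. These groups hold 5080 names (21.8%), whose lines may be displaced. None of the 10 members is in such a group, and no line out of order touched a member's line. Summed over the 7 ES cell markers outside these groups, the level was between 90187 and 99133 normalized counts at passage 6 and between 94891 and 98264 at passage 16, and all 7 were present in every library. Fibroblast markers, 6 in all, summed to between 3746 and 5779 at passage 6 and between 4381 and 5803 at passage 16, and 2 neural markers to between 2548 and 4347 and between 1843 and 3307. Mesoderm and muscle markers, 2 in all, summed to at most 28.7. Transcripts of 4 Y-linked genes summed to between 4536 and 5366 in clones 20 and 30 and to at most 14.2 in clones 6 and 36.

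Atrx lies on the X chromosome at chrX:105797615-105929403, on the minus strand (GRCm38), and Daxx at chr17:33909414-33915590 on the plus strand. The bases in front of both genes are shown because clone 30 held the lowest mRNA level of Atrx and the highest of its partner. Each stretch holds the 200 bases that end 51 bases before a RefSeq transcript start (GRCm38.p6), given 5′ to 3′ on the strand of the gene, with every CG in capitals. The Atrx stretch is chrX:105929423-105929622, and the Daxx stretch, in front of the first of the starts of this gene, is chr17:33909195-33909394.
Atrx: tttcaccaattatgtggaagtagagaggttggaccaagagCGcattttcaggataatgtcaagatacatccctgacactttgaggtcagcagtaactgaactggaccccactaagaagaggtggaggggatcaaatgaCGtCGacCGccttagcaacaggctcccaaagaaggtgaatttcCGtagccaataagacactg
Daxx: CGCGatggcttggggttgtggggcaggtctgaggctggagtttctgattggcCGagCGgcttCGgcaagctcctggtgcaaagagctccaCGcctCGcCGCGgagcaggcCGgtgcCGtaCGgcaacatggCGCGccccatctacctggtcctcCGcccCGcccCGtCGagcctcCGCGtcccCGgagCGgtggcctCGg
The Atrx stretch holds 5 CG, a number that 47.4% of the 32851 stretches of the same length in front of all listed starts reach, and the Daxx stretch holds 23, which 6.48% reach. CG reads the same on both strands, and 89.1% of all stretches hold at least 1. All 10 members matched a listed start, with 16 stretches that hold between 3 and 29 CG. DNA methylation at these stretches was not analysed here.

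Atrx mRNA was at 10623 normalized counts in clone 6, 12655 in clone 20, 5384 in clone 30 and 11242 in clone 36 at passage 6. At passage 16 the values were 8242, 11059.7, 3946 and 10228 in the same order of clones. Clone 30 was the lowest at each passage and lay below every library of the other clones, clone 20 was the highest at each passage, and the passages overlapped. The mean went from 9976 ± 3177 (SD, n = 4) at passage 6 to 8369 ± 3177 at passage 16, a log2 difference of -0.29 (SE 0.383, 95% interval from -1.17 to 0.60), which did not pass the test (limma, adjusted p = 0.947). In 4 of 4 clones Atrx was lower at the later passage, with log2 differences of -0.37, -0.19, -0.45 and -0.14 in clones 6, 20, 30 and 36. Atrx was the only member of 10 with that pattern, which 9.42% of all tested names share.

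**Figure D1:**
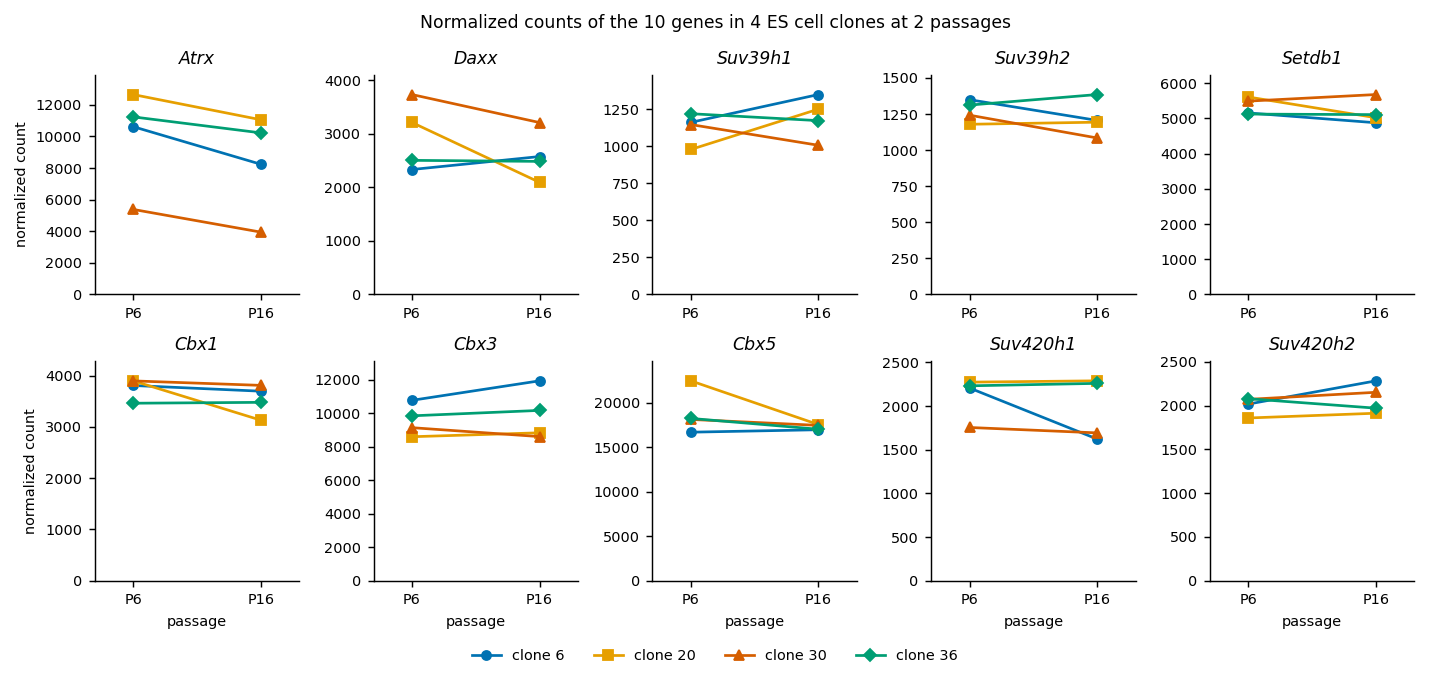
Normalized counts (linear axis from 0) of the 10 members in the 4 clones at passage 6 and passage 16, 1 panel per gene, with a line joining the 2 libraries of a clone. Atrx is lowest in clone 30 at both passages, 5384 and 3946, and its lines all slope down, while for most other members the lines of the clones cross.

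When the clone was added to the model as the replicate block, the tests of Atrx differed between tools. Its unadjusted p in limma was 0.00777, and it was the only member of 10 under 0.05, where 5.98% of all names were, but its adjusted p was 0.726 in limma and 0.749 in edgeR. In DESeq2 with the block Atrx passed the threshold (log2 difference -0.29, SE 0.0755, adjusted p = 0.0285), and 0.402% of the names that DESeq2 tested were called lower. With the names of the displaced groups left out, the same DESeq2 fit gave an adjusted p of 0.0898. The block pairs the libraries of clone 6, which correlated at r = 0.0956, below their highest correlation with another clone (0.281). The exact permutation test of 4 against 4 libraries, which ignores the pairing, gave p = 0.486 (two-sided). Without the passage 16 library of clone 30 the difference was 0.041 in the unpaired fit, which then kept the low passage 6 value of that clone. Without both libraries of clone 30 it was -0.23.

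Between clones, the means of Atrx over both passages spanned 1.36 on the log2 scale, from clone 30 to clone 20. This was the widest span of the 10 members, and its unadjusted p was 1.11e-04 in the limma F-test of the clones with a term for the passage. Over all 14791 names the adjusted p was 0.0640, which misses the threshold that 0.135% of all names passed. With the displaced groups left out, where 0.505% of the names passed, the adjusted p was 0.00776, so the call for Atrx depends on which names are tested. Without clone 30 the span was 0.34 and the adjusted p was 0.928. The 2 passages of a clone serve as its replicates in this test, so its p-values measure the spread between libraries of 1 line and not between independently derived lines.

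The other 3 clones averaged 11507 ± 1041 (SD, n = 3) normalized counts of Atrx at passage 6, 2.14-fold the level of clone 30, and 9843 ± 1448 at passage 16, 2.49-fold its level. On the log2 scale clone 30 differed from these clones by -1.09 and -1.31. The following counts describe other names against this difference and carry no test. Of 329 X-linked names with a mean of at least 100 outside the displaced groups, 1 was lower by 1 or more in clone 30 at both passages, and this was Atrx itself. Among all 9444 such names 64 were (0.678%). The median X-linked name differed by -0.087 at passage 6 and by -0.049 at passage 16. Within 1000000 bases on each side of Atrx lie 8 such names, with a median of -0.25 at both passages. The most negative of these differences were those of Pgk1, a glycolytic kinase (-0.98 and -0.97), and of Lpar4, a lysophosphatidic acid receptor (-0.14 at passage 6 and -1.10 at passage 16).

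Atrx has a long and AT-rich transcript of 10275 bases with 39.5% GC, and names of this kind were lower in clone 30 as a group. Of 68 other names with a transcript over 7000 bases and under 40% GC, 59 were lower in clone 30 at both passages, with medians of -0.32 at passage 6 and -0.48 at passage 16. The other 9304 names had medians of 0.0016 and 0.0081, and how many of them were lower at both passages was not counted. The limits of 7000 bases and 40% GC were not set beforehand. Over both passages 3 of the 68 differed as much as Atrx or more. After the trend with GC content and length was taken out of each library, the clone means of Atrx spanned 1.05 on the log2 scale. For that span the limma F-test gave an adjusted p of 0.0756 over all names and 0.0138 without the displaced groups. The passages then differed by -0.20 (limma with the clone block, unadjusted p = 0.0154, adjusted p = 0.731). The summed level of 4 primitive endoderm markers was also lowest in clone 30, at 1177 normalized counts at passage 6 and 845 at passage 16, against between 1437 and 4218 and between 1383 and 3336 in the other clones. None of these 4 markers was at 0 in any library. The parts of transcript composition and of such cells in the Atrx values were not tested.

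**Figure D2:**
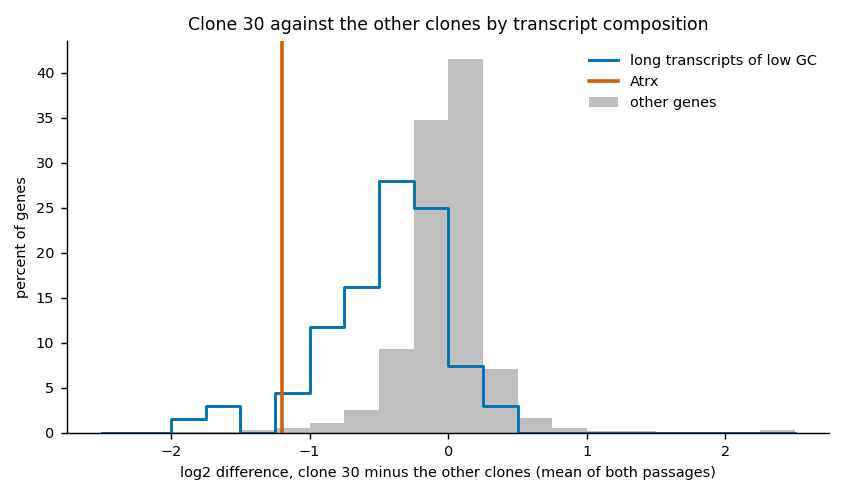
Share of genes (%, vertical axis) by the log2 difference of clone 30 from the mean of the other 3 clones, averaged over both passages (horizontal axis), for 68 names with long AT-rich transcripts (line) and for the other 9304 names (grey bars), with values beyond the axis counted in the last bar on that side. The long AT-rich names are shifted to lower values, and Atrx, drawn as a vertical line at -1.20, lies towards the lower end of their range.

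The name whose values ran closest to those of Atrx over the 8 libraries was Gm13242 on chromosome 4, out of 9443 compared. After centring, its log2 values differed from those of Atrx by 0.0514 (root mean square), where those of Atrx varied around their own mean by 0.556. Gm13242 was at 3955, 4825, 1933 and 4263 normalized counts in clones 6, 20, 30 and 36 at passage 6 and at 2940.1, 3769, 1486 and 3763 at passage 16. Like Atrx it was lowest in clone 30 at both passages, and its transcript has 36.1% GC over 4006 bases. The name was picked as the closest of many, so its likeness is a description.

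Daxx, the partner of Atrx, was at 2330.4, 3208, 3729 and 2502 normalized counts in clones 6, 20, 30 and 36 at passage 6. Its passage 16 values were 2573, 2091, 3206 and 2482. Clone 30, lowest for Atrx, was the highest for Daxx at each passage, and the passages overlapped. The mean went from 2942 ± 648 to 2588 ± 462 (SD, n = 4), a log2 difference of -0.18 (SE 0.180, 95% interval from -0.59 to 0.24, adjusted p = 0.947 in limma). Daxx was lower at passage 16 in 3 of 4 clones, with log2 differences of -0.62 in clone 20, -0.22 in clone 30 and -0.011 in clone 36, and higher by 0.14 in clone 6. Its clone means spanned 0.50 on the log2 scale, less than those of Atrx, and the clones were not told apart (limma F-test, unadjusted p = 0.133, adjusted p = 0.523). Slfn5, a member of the Schlafen family, ran closest to Daxx, at 0.0506 (root mean square of the log2 differences) against 0.263 for the spread of Daxx itself.

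Within a library the ratio of 2 normalized counts does not depend on the size factor. Atrx over Daxx was 4.56, 3.94, 1.44 and 4.49 in clones 6, 20, 30 and 36 at passage 6, against 3.20, 5.29, 1.23 and 4.12 at passage 16. Clone 30 had the lowest ratio at each passage and lay outside the range of the other clones, from 3.20 to 5.29. Between passages the ratio fell in 3 clones and was higher at passage 16 in clone 20. It is a ratio of uncorrected counts, and per length of exon Daxx was above Atrx on average, at 975 against 721 normalized counts per kilobase. That order did not hold in every library.

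**Figure D3:**
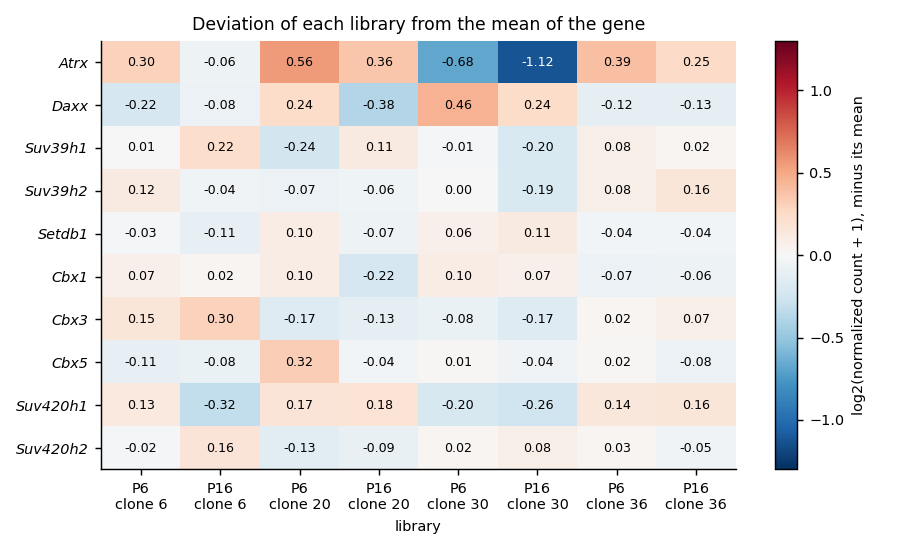
Deviation of each member's log2 value from its mean over the 8 libraries, 1 column per library and 1 line of cells per gene. The deepest negative cells are those of Atrx in clone 30 at both passages, and Daxx is above its mean in the same 2 libraries.

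Among the H3K9 methyltransferases, the 2 SUV39H genes were both low and close in level. Suv39h1, an X-linked gene at chrX:8061171-8074760 on the minus strand, was at 1163, 979, 1148 and 1221 normalized counts in clones 6, 20, 30 and 36 at passage 6. Its values at passage 16 were 1351, 1252, 1008 and 1174. Clones 6 and 20 were higher at passage 16 and clones 30 and 36 lower, so that the passages overlapped. The log2 difference was 0.082 (SE 0.107, 95% interval from -0.17 to 0.33, adjusted p = 0.947 in limma), with means of 1128 ± 104 and 1196 ± 145 (SD, n = 4). Suv39h1, X-linked like Atrx, was lowest in clone 30 at passage 16 only, and its clone means spanned 0.22 on the log2 scale (limma F-test, adjusted p = 0.715).

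Suv39h2, at chr2:3455815-3475031 on the minus strand, was at 1349.6, 1179, 1242 and 1312 normalized counts in clones 6, 20, 30 and 36 at passage 6. It was at 1206, 1194, 1084 and 1385 at passage 16. Clones 6 and 30 were lower at the later passage and clones 20 and 36 slightly higher, with overlapping passages. The difference of -0.066 on the log2 scale (SE 0.0849, 95% interval from -0.26 to 0.13, adjusted p = 0.947 in limma) went with means of 1271 ± 75.5 and 1217 ± 125 (SD, n = 4). Suv39h2 overlaps Dclre1c on the other strand, and whether the counting used the strand is not stated in the sources used here. Suv39h1 over Suv39h2 was between 0.830 and 0.931 at passage 6 and between 0.848 and 1.12 at passage 16. The ratio rose above 1 in clones 6 and 20 at passage 16 only, at 1.12 and 1.05, and the ranges of the passages overlapped. These counts are uncorrected for length, and per kilobase of exon Suv39h2 was above Suv39h1 in all 8 libraries. The exon length used for Suv39h1, 4971 bases, is above its longest annotated transcript of 3116 bases, so this order depends on the length used.

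Setdb1 was the steadiest of the 10 members. At passage 6 it was at 5154, 5607, 5489.7 and 5122 normalized counts in clones 6, 20, 30 and 36, and at passage 16 at 4875, 5017, 5677 and 5106. Its highest library was 1.16-fold its lowest, and the passages overlapped. The range of Setdb1 was compared with those of 9444 names outside the displaced groups, all averaging 100 or more normalized counts. Of these, 86.3% had a wider range over the 8 libraries, against 3.07% for Atrx. The passages differed by -0.049 on the log2 scale (SE 0.0597, 95% interval from -0.19 to 0.089, adjusted p = 0.947 in limma), with means of 5343 ± 242 and 5169 ± 352 (SD, n = 4). Setdb1 lies at chr3:95323525-95357202 on the minus strand and overlaps Cers2 on the other strand, so the same limit on strand holds for it.

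The HP1 genes were the most abundant members per kilobase of exon. Cbx3 (chr6:51470360-51483704, plus strand) was at 10763, 8592, 9133 and 9839 normalized counts in clones 6, 20, 30 and 36 at passage 6. At passage 16 it was at 11928, 8827, 8599.8 and 10162. Clone 6 was the highest at each passage and clone 36 the next, while clones 20 and 30 were the lowest, and the passages overlapped. The mean went from 9582 ± 939 to 9879 ± 1530 (SD, n = 4), a log2 difference of 0.037 (SE 0.116, 95% interval from -0.23 to 0.31, adjusted p = 0.971 in limma), which was -0.058 without the passage 16 library of clone 6, -0.014 without the passage 6 library of clone 20 and -4.17e-04 without clone 6.

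Cbx3 and Atrx were the 2 of 10 members with an unadjusted p under 0.05 between clones, where 10.7% of all names were. For Cbx3 that p was 0.0101 (limma F-test, adjusted p = 0.363), with clone means that spanned 0.38 on the log2 scale. Names on chromosome 6, which carries Cbx3, were shifted together in 1 library. Over 435 of them, the median deviation from the mean of all libraries was 0.26 in clone 6 at passage 16 and between -0.065 and 0.0019 in the other 7 libraries. Clone 6 at passage 6 was at -0.011, and Cbx3 was the highest in this clone there too. The part of that shift in the Cbx3 value of clone 6 at passage 16 was not tested. Cbx3 also has 8 named pseudogenes, and reads shared with such copies make its level uncertain.

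Cbx5 (chr15:103191544-103239816, minus strand) was at 16700.2, 22475, 18133 and 18250.1 normalized counts in clones 6, 20, 30 and 36 at passage 6. Its passage 16 values of 16975, 17553, 17467 and 17034 lay closer together. Clone 20 at passage 6 was the highest library by a wide margin, and all passage 16 values fell within the range of passage 6. Means were 18890 ± 2492 and 17257 ± 295 (SD, n = 4), with a log2 difference of -0.12 (SE 0.0852, 95% interval from -0.32 to 0.075, adjusted p = 0.947 in limma). The difference between clones 20 and 6, the highest and lowest by their means, was 0.24 on the log2 scale (limma F-test, adjusted p = 0.584).

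Cbx1 (chr11:96789127-96808640, plus strand) was at 3806, 3897, 3895 and 3459.8 normalized counts in clones 6, 20, 30 and 36 at passage 6. At passage 16 the values were 3694, 3129.9, 3808 and 3477. Clone 20 at passage 16 was the lowest library, clone 36 was low at both passages, and the passages overlapped. The log2 difference was -0.096 (SE 0.0731, 95% interval from -0.27 to 0.073, adjusted p = 0.947 in limma), between means of 3764 ± 207 and 3527 ± 298 (SD, n = 4). In clone 20 alone it was -0.32, while the other clones differed by between -0.043 and 0.0071.

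Per kilobase of exon, Cbx3 made up between 51.6% and 61.6% of the summed HP1 mRNA at passage 6 and between 55.5% and 64.1% at passage 16. Cbx5 made up between 20.8% and 29.5% and between 19.9% and 25.2%, and Cbx1 between 16.8% and 19.4% and between 16.0% and 19.8%. The order Cbx3, Cbx5 and Cbx1 held in all 8 libraries, and for each gene the shares of the passages overlapped. The exon length used for Cbx3, 1961 bases, is below its longest annotated transcript of 2926 bases, so its share may be too high.

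**Figure D4:**
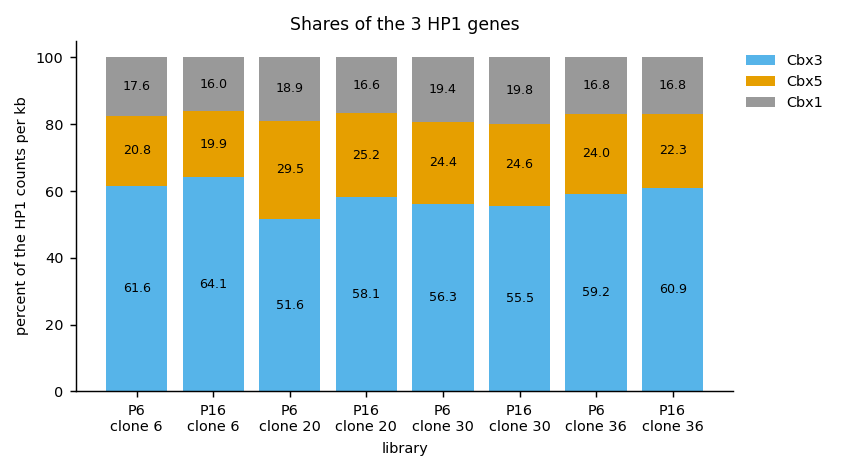
Share (%) of Cbx3, Cbx5 and Cbx1 in the summed HP1 mRNA per kilobase of exon, 1 stacked bar per library, by clone and passage. Cbx3 holds between 51.6% and 64.1% of every bar, and the order of the genes is the same in all 8.

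The H4K20 methyltransferase genes had like normalized counts but moved apart in some clones. Suv420h1 (chr19:3767421-3818303, plus strand) was at 2207, 2275, 1755 and 2233 normalized counts in clones 6, 20, 30 and 36 at passage 6. At passage 16 it was at 1623, 2290.0, 1694 and 2261. Clone 30 was low at both passages, clone 6 was low at passage 16 only, clones 20 and 36 were high at both, and the passages overlapped. The log2 difference of -0.12 (SE 0.143, 95% interval from -0.45 to 0.21, adjusted p = 0.947 in limma) went with means of 2118 ± 243 and 1967 ± 358 (SD, n = 4). It was -0.44 in clone 6 and between -0.052 and 0.018 in the other 3 clones. The clone means spanned 0.40 on the log2 scale, the third widest span of the 10 after Atrx and Daxx, and did not pass the test (limma F-test, unadjusted p = 0.0776, adjusted p = 0.478). Synj2bp, a mitochondrial outer membrane protein gene, ran closest to it, at 0.0373 (root mean square of the log2 differences) against 0.203 for the spread of Suv420h1 itself.

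Suv420h2 (chr7:4740115-4747514, plus strand) was at 2018, 1859, 2072 and 2079 normalized counts in clones 6, 20, 30 and 36 at passage 6. At passage 16 it was at 2283, 1913, 2152 and 1971. It was higher at passage 16 in 3 of 4 clones, lower in clone 36, and the passages overlapped. The passage means of 2007 ± 102 and 2080 ± 170 (SD, n = 4) differed by 0.049 on the log2 scale (SE 0.0712, 95% interval from -0.12 to 0.21, adjusted p = 0.947 in limma). Suv420h1 over Suv420h2 was 1.09, 1.22, 0.847 and 1.07 in clones 6, 20, 30 and 36 at passage 6, against 0.711, 1.20, 0.787 and 1.15 at passage 16. The ratio was below 1 in clone 30 at both passages and in clone 6 at passage 16, and above 1 in the other 5 libraries. It is a ratio of counts uncorrected for length, so 1 does not mark equal levels. Per kilobase of exon Suv420h2 was above Suv420h1, at 723 against 224 normalized counts on average.

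Between passages, 0 of 10 members passed the adjusted threshold in limma, where 0.00676% of all tested names did, and 0 of 10 had an unadjusted p under 0.05, where 3.5% of all names did. In edgeR 0 of 10 were called, and in DESeq2 0 of 10 without the block and 1 with it. All 10 members overlapped between passages, as did all but 2.43% of the tested names. The log2 difference was above 0 for Suv39h1, Cbx3 and Suv420h2 and below 0 for the other 7, with a median of -0.081, beside -0.0011 over the 12283 tested names outside the displaced groups. In the unpaired fit the interval of Atrx was the widest, from -1.17 to 0.60 on the log2 scale, and that of Setdb1 the narrowest, from -0.19 to 0.089. With the clone block in limma the SE of Atrx went from 0.383 to 0.0661 and that of Setdb1 from 0.0597 to 0.0499. The median span of the clone means was 0.23 for the members and 0.31 over the same 12283 names. Those names include ones with a mean down to 10, while each member had at least 870 reads, so the levels compared are unlike.

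**Figure D5:**
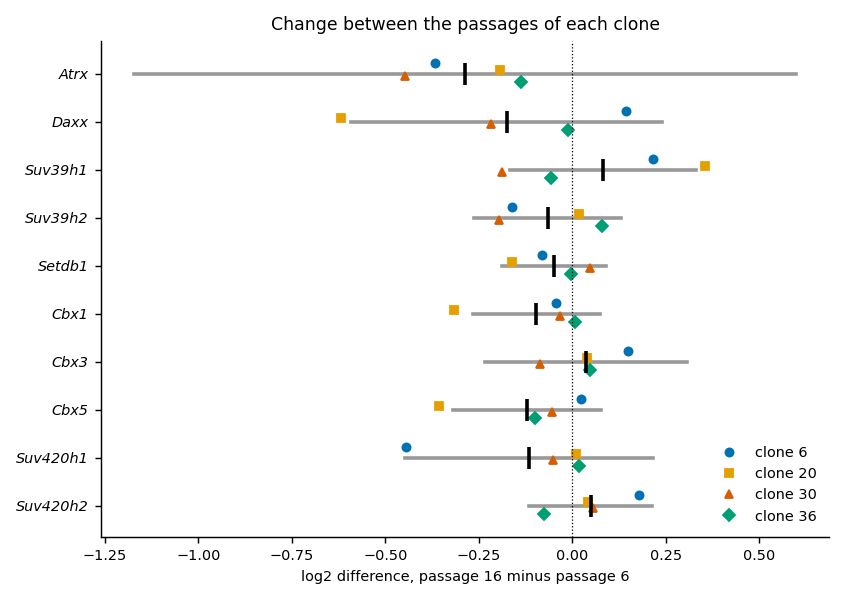
Log2 difference of passage 16 from passage 6 for the 10 members, with the estimate of the unpaired limma fit as a black tick, its 95% interval as a grey bar and the 4 clones as points. Every interval includes 0, the widest is that of Atrx, and all 4 clones lie below 0 for Atrx only.

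Levels can be compared between genes only per length. Per kilobase of exon, the mean over the 8 libraries was 4962 normalized counts for Cbx3, 2011 for Cbx5, 1500.3 for Cbx1 and 1128 for Setdb1. The ranges of these 4 over the libraries did not overlap between neighbours. Below them came Daxx at 975, Suv420h2 at 723, Atrx at 721, Suv39h2 at 288, Suv39h1 at 234 and Suv420h1 at 224. From Setdb1 on, each gene overlapped in range with the next one in this order. Within a library, Daxx was above Suv420h2 and Suv39h2 above Suv39h1 in 8 of 8, while Suv420h2 was above Atrx in 3 of 8 and Suv39h1 above Suv420h1 in 5 of 8. The length is that of the joined exons of a basic set of annotated transcripts, so a gene with unused long exons is placed too low. For Cbx3 and Setdb1 that length, 1961 and 4660 bases, is below their longest annotated transcripts of 2926 and 5652 bases. These genes may be placed too high, and the order of Setdb1 and Daxx depends on the length used. For Suv39h1 that length, 4971 bases, is above its longest annotated transcript of 3116 bases. Its order with Suv39h2 depends on the length too.

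The other genes of these pathways were taken as 5 lists of 52 names, of which 44 were tested outside the displaced groups. Between passages 20 of the 44 were higher and 24 lower, with a median log2 difference of -0.029, and 0 of 44 passed the adjusted threshold or had an unadjusted p under 0.05, where 3.5% of all tested names did. With the clone block in limma 2 of 44 had an unadjusted p under 0.05, where 5.98% of all names did. These were Jmjd1c and Ubn2, each with an adjusted p of 0.726 in limma with the block. Between clones 0 of 44 passed the adjusted threshold and 8 had an unadjusted p under 0.05, where 10.7% of all tested names did.

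H3.3 and its chaperones, the histone that ATRX and DAXX deposit and the proteins that handle it, had 11 of 11 names tested, 6 higher and 5 lower. H3f3b, an H3.3 gene, differed by 0.12 (SE 0.0993) on the log2 scale. Cabin1 and Ubn2, of the HIRA complex, differed by -0.10 (SE 0.0578) and -0.17 (SE 0.166), and Asf1a, a histone chaperone, by -0.10 (SE 0.0676). Cabin1 and Ubn2 were lower at passage 16 in 4 of 4 clones, as 9.42% of all tested names were. H3f3b was higher in 4 of 4, as were Hira and Chaf1b of this list. The share of all tested names higher in 4 of 4 clones was not counted. Ubn2 was lowest in clone 30 at each passage, at 1614 and 1509 normalized counts against between 2062 and 2552 in the other libraries. Its unadjusted p between clones was 0.00242 (limma F-test, adjusted p = 0.267), and 4 of the 11 names of its list had an unadjusted p under 0.05 there, beside 10.7% of all tested names.

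Other H3K9 methyltransferases and their partners had 6 of 10 names tested outside the groups, 2 higher and 4 lower, with Zfp644, Atf7ip, Trim28 and Prdm16 left out because their lines may be displaced. Setdb2, a relative of Setdb1, differed by 0.059, Wiz, a partner of the G9a complex, by -0.032, Mecom by -0.10 and Prdm2 by -0.029. The H3K9 demethylases had 10 of 10 tested, 4 higher and 6 lower. Jmjd1c had the lowest unadjusted p of all 44, with means of 9083 ± 970 and 7368 ± 1249 normalized counts (SD, n = 4), a log2 difference of -0.31 (SE 0.137) and lower values at passage 16 in 4 of 4 clones (limma, unadjusted p = 0.0524, adjusted p = 0.947). Kdm4c was also lower in 4 of 4 clones, by -0.20 (SE 0.109), a pattern that 9.42% of all tested names share. Kdm4a differed by -0.068 and Phf8 by -0.049.

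HP1 partners and silencing cofactors had 11 of 13 names tested outside the groups, 5 higher and 6 lower. Adnp was left out with its group, and Fam208a was not analysed here. Hells, a chromatin remodeler needed for DNA methylation of repeats, differed by -0.13, Morc3 by -0.078, Morc2a, a partner of the HUSH silencing complex, by -0.058 and Incenp, of the chromosomal passenger complex, by 0.080. Other H4K20 factors had 6 of 8 tested outside the groups, 3 higher and 3 lower, with Phf2 in a group and L3mbtl1 under the minimum level. Rbl1, a retinoblastoma family gene, was higher at passage 16 in 4 of 4 clones, a pattern not counted over all tested names. Its log2 difference was 0.12 (SE 0.0765). Its relatives Rb1 and Rbl2 differed by 0.12 and -0.20, and L3mbtl2, a reader of methylated histones, by -0.075. Morc2a and L3mbtl2 were lower at passage 16 in 4 of 4 clones, as 9.42% of all tested names were.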

How the data were processed

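The authors deposited 1 table of normalized counts, a signal per gene that is the read count divided by a size factor per library. According to the submitters' processing notes, reads were aligned to GRCm38 with TopHat2 2.0.10, Bowtie 1.0.0 and SAMtools 0.1.19 and counted with HTSeq 0.5.3p9, and DESeq2 was used. Whole reads were recovered for 100% of the values (tolerance 0.001) and served the count tests. Samples were grouped by the passage and clone in their labels. Passages were compared two-sided with limma 3.58.1 in R 4.3.3, with trended variance, over 14791 names with a mean of at least 10. Values were taken as log2 after adding 1 to the normalized count, which understates changes of low genes. P-values were adjusted by Benjamini-Hochberg and called below 0.05. Clones were compared with an F-test of the clone terms beside the passage. Alternatives were edgeR 4.0.16, DESeq2 1.42.0, the clone as a block, other filters and pseudocounts, TMM, a fit on names outside the displaced groups, a correction for GC and length, and leaving out libraries or clones. The replicate block rests on the clone numbers of the labels. Deviations of the 2 libraries of a clone correlated over 12283 names at r = 0.0956, 0.271, 0.701 and 0.433 for clones 6, 20, 30 and 36. For clone 6 the highest correlation with another clone, 0.281, was above its own, so the values do not bear out its pairing. P-values between passages measure the spread between these 4 clones. Scripts were tested on simulated data. The members and lists were chosen with earlier results of these data known. Named were the 10 members, up to 4 listed genes with the lowest passage p per list, and the closest name for the 3 members of widest range. Pgk1, Lpar4, Hira and Chaf1b were chosen after their values were seen. Gene positions are those of GENCODE M21.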

Additional observations from a re-analysis of the deposited data

Results flagged for a closer look

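Groups of 4 libraries were examined for each member, ratio and HP1 share at each passage. In 1 of 32 such groups the lowest or highest library stood far from the other 3, where chance would give about 1.6 such groups. This was Suv420h1 at passage 6, where clone 30 was at 10.8 on the log2 scale, with the nearest other clone at 11.1 and the highest at 11.2. The gap took 0.884 of the whole range of the group, above Dixon's 95% limit for 4 libraries.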

How the results depend on the processing

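Of the 270 differences of the 10 members between passages over 27 alternatives, 24 of them set beforehand, 265 kept their direction and 1 passed the threshold, that of Atrx in DESeq2 with the replicate block (-0.29, adjusted p = 0.0285). The 5 that turned came from fits without libraries: Atrx without the passage 16 library of clone 30 (0.041), Suv39h1 without clone 20 (-0.0092), and Cbx3 without the passage 6 library of clone 20 (-0.014), the passage 16 library of clone 6 (-0.058) or clone 6 (-4.17e-04). Fits without a library or clone gave between -0.56 and 0.041 for Atrx, -0.0092 and 0.17 for Suv39h1 and -0.058 and 0.099 for Cbx3. Several other differences that passed no test also moved by over 1.5 times, such as that of Daxx without clone 20 (-0.029) or the passage 6 library of clone 30 (-0.053), of Cbx5 without the passage 6 library of clone 20 (-0.035, with a clone span of 0.080), of Suv420h1 without clone 6 (-0.0081) and of Suv420h2 without the passage 16 library of clone 6 (0.0034). The cause was not tested. The replicate block changed no other member's call. Over all names, 1 name was called between passages in limma, and 44 were called in DESeq2. With the replicate block 0 were called in limma, 2 in edgeR and 98 in DESeq2, and 20 in DESeq2 outside the displaced groups. In limma 0 were called outside those groups (436 with an unadjusted p under 0.05), 0 with the block and the correction for GC and length, and between 1 and 26 in fits without a library or clone, the highest without clone 30. Between clones 20 names were called, 62 outside the displaced groups, 45 there with the correction, and between 0 and 165 in fits without a library or clone, the lowest without clone 20 and the highest without the passage 16 library of clone 6. The span of the clone means of Atrx, past the threshold in 4 of 19 alternatives, was between 0.34 and 1.58 in those fits. It passed also without clone 6 (adjusted p = 0.0447, limma) and without its passage 16 library (0.0470). The fits of GC and length, and of the names outside the groups with the block in DESeq2, were added after the data had been seen. Counting error was at most 3.39% of a member's value.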
